A study of Homo sapiens with 68 samples.

Results

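RBFOX2-only sites are stretches of RNA at which a peak was listed for the splicing regulator RBFOX2 and for none of 3 other RNA-binding proteins studied alongside it. They were selected on the peak lists themselves. A peak of RBFOX2_50k_noPAGE replicate 1 was taken when a peak of replicate 2 on its strand overlapped it by 1 nt or more. It was then kept when no peak of the 12 libraries titled 50k_noPAGE or 50k_lowRNase of hnRNPA1, hnRNPc and hnRNPI overlapped it. This gave 26448 sites, which is 34.4% of the 76910 reproducible RBFOX2 sites and 16.8% of the 157375 peaks of replicate 1. The 68 lists of the series hold 15800601 peaks in all. The other 50462 reproducible RBFOX2 sites, each overlapped by at least 1 hnRNP peak, are called shared sites here and serve as the comparison. Widths, read numbers and distances within these 14 libraries are descriptions, since the lists were used to choose the sites.

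TLC-CLIP crosslinks proteins to RNA with ultraviolet light in living cells, pulls down 1 protein with an antibody and sequences the short RNA fragments that stay attached. All libraries came from HEK293T, a human embryonic kidney cell line, in 34 groups of 2 libraries. The antibody of the RBFOX2 libraries is labelled RBM9, an older name of the same protein. The labels do not say whether the 2 libraries of a group came from separate cultures, so the spread between them may be technical.

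Groups titled 50k used 50000 cells and 0.005 U of RNase, the enzyme that trims the bound RNA. In 50k_lowRNase the complexes were purified by polyacrylamide gel electrophoresis (PAGE), and in 50k_noPAGE this step was omitted. In 50k_noPAGE_RecJ, again without PAGE, an exonuclease step removed adapter. The groups titled 10k used 10000 cells with 0.001 U of RNase, and those titled 1k used 1000 cells with 0.0001 U. The groups titled noUV and noUV_noPAGE used 50000 cells and 0.005 U and are, by their titles and the design text, without crosslinking, although the protocol text of every sample describes it. The 50k_mediumRNase groups of hnRNPA1 and hnRNPc used 0.025 U. Further hnRNPc groups carry smaller cell numbers in their titles (hnRNPc_5k and hnRNPc_500), while their labels give 50000 cells. The Background groups are gel regions between 50 and 250 kDa from 10000 cells and 0.001 U.

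RBFOX2 belongs to a family of RNA-binding proteins that regulate alternative splicing and recognise the short motif UGCAUG or its core GCAUG. Binding downstream of an alternative exon is generally linked to inclusion of the exon, and binding upstream to its skipping. Many RBFOX sites lie in introns far from the exon they act on. hnRNPA1 is a general splicing repressor, hnRNP C coats uridine-rich stretches of nascent transcripts, and hnRNPI is the polypyrimidine tract binding protein. No genome sequence of the build of the lists was used here, so the motif was not searched and no site sequence is shown.

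Lists of the RBFOX2 libraries ranged from 22911 peaks without crosslinking to 260610 peaks with it, and crosslinked hnRNP lists outside the rule from 175305 to 493269 peaks. One list used for the choice stands apart, since hnRNPc_50k_lowRNase replicate 1 holds 3268 peaks. Leaving it out gave 26450 RBFOX2-only sites. Sequencing depth is unknown. The last number in each peak name, at least 4 in every list, is called its read number, a reading that the sources used here do not state.

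In replicate 1, RBFOX2-only sites were about as wide as the peaks of the library at large and narrower than shared sites. Their median width in replicate 1 was 60 nt, with the middle 50% between 38 and 83 nt and a full range of 1 to 301 nt. All peaks of that list had a median of 59 nt, and shared sites one of 72 nt. Peaks of at most 20 nt made up 9.04% (2391) of the RBFOX2-only sites and 6.75% of the shared sites. Peaks over 100 nt made up 13.8% (3654) and 23.8%. The peaks that overlapped the sites in replicate 2 had medians of 65 nt and 74 nt, against 59 nt for all peaks of that list. A wide peak has more room to meet a hnRNP peak, so the rule itself bears on width. When an overlap had to cover at least 50% of the peak, the medians of the 2 sets differed by 0 nt. Among sites with 100 or more reads in the lower replicate the order was turned, with 69.5 nt for RBFOX2-only and 58 nt for shared sites.

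The median read number of RBFOX2-only sites was 19 in replicate 1 and 21 in replicate 2. That of shared sites was 21 in both. The highest read number of an RBFOX2-only site was 4067 in replicate 1, against 163014 for a shared site. Across the 26448 sites the read numbers of the replicates had a Spearman coefficient of 0.898, and 91.1% of sites agreed within 2-fold. Sites are not independent replicates and the rule required both lists, so this is a description. The replicates overlapped over a median of 40 nt, or 79.1% of the width of the site. A deposited p-value below 1e-05 was listed for 76.1% of the RBFOX2-only sites in replicate 1 and for 78.0% of the shared sites.

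**Figure D1:**
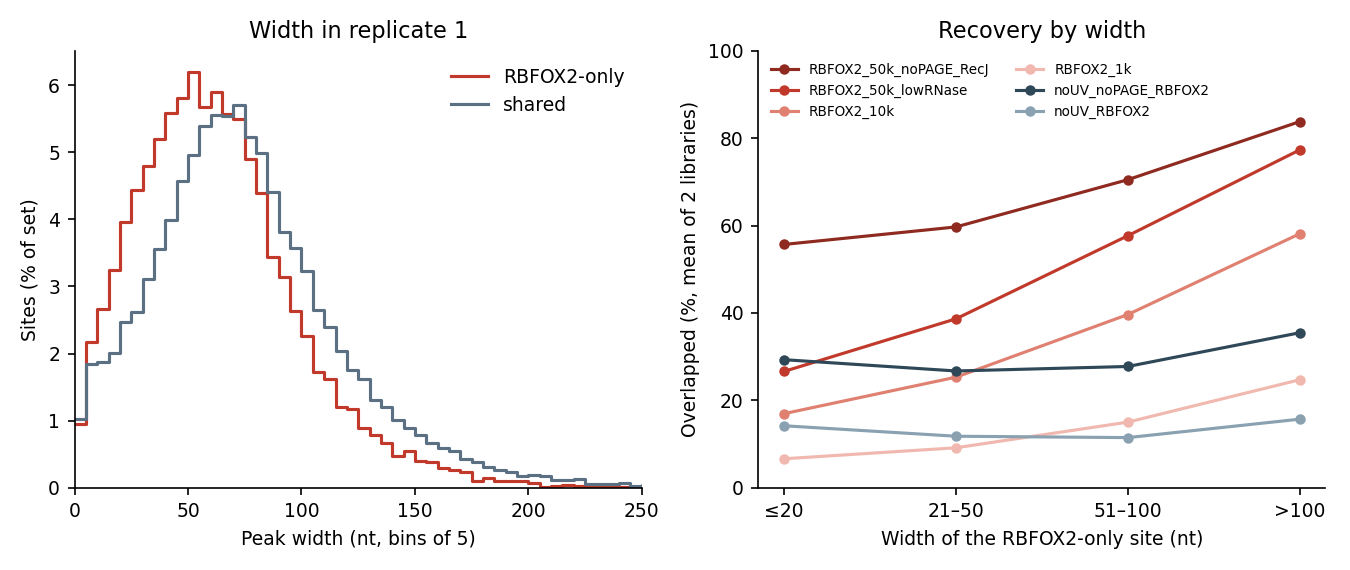
Left, peak width in RBFOX2_50k_noPAGE replicate 1 in bins of 5 nt, as the percent of the 26448 RBFOX2-only sites and of the 50462 shared sites. The curve of RBFOX2-only sites lies to the left, with medians of 60 and 72 nt. Right, the percent of RBFOX2-only sites overlapped in 6 RBFOX2 groups (mean of 2 libraries) by width class. Recovery rises with width in the 4 crosslinked groups and does not rise at each step in the 2 groups without crosslinking.

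In the RBFOX2 libraries outside the rule, the peaks that overlapped RBFOX2-only sites were narrower at the median than those that overlapped shared sites. In RBFOX2_50k_lowRNase they measured 75 nt in replicate 1 and 74 nt in replicate 2, against 79 nt in both for shared sites. In RBFOX2_50k_noPAGE_RecJ the medians were 70 nt in both libraries against 78 nt. In RBFOX2_10k they were 73 nt in both against 77 nt, and in RBFOX2_1k 67 and 66 nt against 69 nt. All peaks of the same lists had smaller medians. These were 62 and 63 nt in 50k_lowRNase, 59 nt in both RecJ libraries, 66 and 64 nt in 10k, and 56 and 54 nt in 1k. The gap between the site sets was smaller in these lists than the 12 nt seen in replicate 1, but it does not cover the same sites. These medians hold only for the sites that each list overlapped. Those were 14110 RBFOX2-only sites in RBFOX2_50k_lowRNase replicate 1 and 3245 in RBFOX2_1k replicate 1. Wide sites were overlapped more often in these groups. Without crosslinking, the medians were 61 and 62 nt against 63 and 65 nt with PAGE, and 59 and 60 nt against 64 and 65 nt without it. All peaks of those lists had medians of 54 nt in both libraries with PAGE, and of 50 and 51 nt without it.

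RBFOX2-only sites had neighbours of their own kind at very different distances, and most had a hnRNP peak within 1000 nt. The median distance to the nearest other RBFOX2-only site on the same strand was 361 nt, with the middle 50% between 30 and 6363 nt. Another RBFOX2-only site lay under 1000 nt away for 60.1%. For shared sites, which are the larger set, the median distance to each other was 156 nt. Another RBFOX2-only site was under 30 nt away for 24.9% (6589) of the sites and touched or overlapped the site for 20.9%. For shared sites these shares were 33.9% and 30.3%. At the far end, 21.6% of the RBFOX2-only sites had no other within 10 kb, against 12.04% of shared sites.

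Neighbours of both kinds surrounded many of the sites. To the nearest reproducible RBFOX2 site of either kind, the same partners for both sets, the median distance was 134 nt for RBFOX2-only and 100 nt for shared sites. Such a site lay under 1000 nt away for 72.1% of the former and 72.2% of the latter. From an RBFOX2-only site to the nearest shared site the median was 1209 nt. The nearest peak of the 12 hnRNP libraries was 141 nt away at the median, with the middle 50% between 51 and 353 nt. It lay under 1000 nt away for 92.1% of the sites and under 30 nt away for 15.8%. Most RBFOX2-only sites thus had a hnRNP peak nearby that did not reach them. The 12 lists hold up to 523402 peaks each, and no share over other RBFOX2 peaks is given here for comparison. This closeness is therefore not shown to be particular to the sites.

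Joining RBFOX2-only sites under 30 nt apart gave 22675 clusters, of which 87.6% held 1 site and 578 held 3 or more. The most crowded cluster held 21 sites and the widest spanned 803 nt. Part of the closeness comes from the listing, because 583 sites are intervals that the lists give a further time under another gene. Counting each interval once left 25865 sites, and 21.6% of those lay under 30 nt from another.

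**Figure D2:**
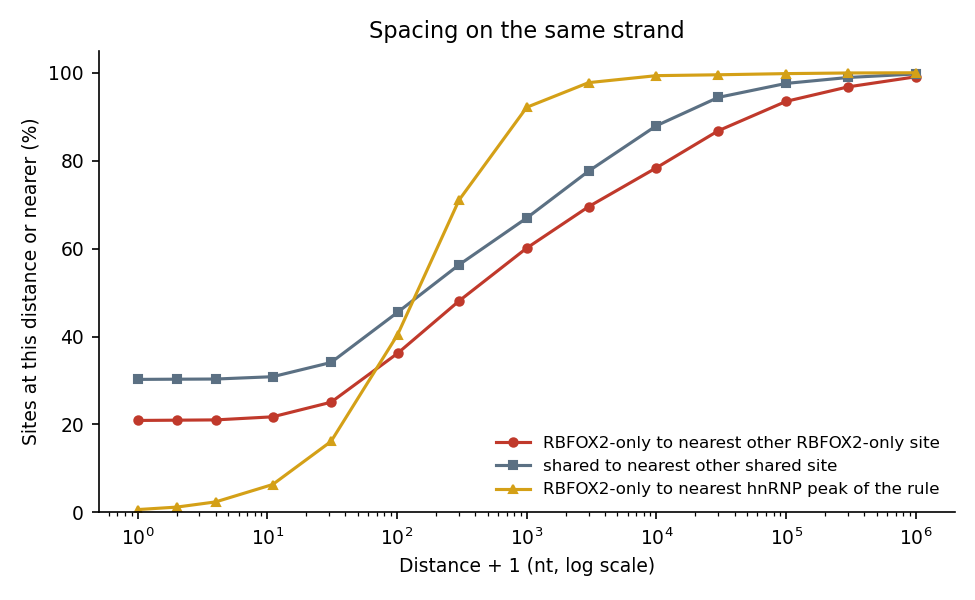
Cumulative percent of sites (vertical) with a neighbour at or within a distance in nt (horizontal, log scale, 1 added so that 0 can be drawn), on the same strand. The curve of RBFOX2-only sites lies below that of shared sites, while 92.1% have a hnRNP peak of the rule within 1000 nt.

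The sites were spread over 7873 genes, by the Ensembl identifiers in the peak names. The files do not pair these identifiers with gene names, so the genes are not named. Of these genes, 2874 held 1 RBFOX2-only site, 3317 held 2 to 4, 1221 held 5 to 9 and 461 held 10 or more. The 461 genes with 10 or more held 25.6% of the sites. A shared site was also listed in 6169 of the genes. The other 1704 genes held 3131 RBFOX2-only sites, or 11.8%.

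Genes that escaped the hnRNP lists were rare among them. Only 287 sites (1.09%), in 178 genes, lay in a gene with no peak in the 12 hnRNP libraries, while 70.3% lay in genes with 100 or more such peaks. No such share over other RBFOX2 peaks is given here, so neither value is shown to be particular to the sites. The median site lay in a gene with 221 hnRNP peaks, summed over the 12 lists, against 387 for shared sites. The stretch between the first and the last listed peak of the gene was 34.9 kb long at the median for RBFOX2-only sites and 46.4 kb for shared sites. RBFOX2-only sites lay at a median of 56.9% along this stretch in the direction of transcription, and shared sites at 49.5%. The strands were even, with 50.7% of the sites on the plus strand. Whether a site is exonic or intronic was not analysed here.

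The share of reproducible sites that were RBFOX2-only varied between chromosomes. It was highest on chromosome 16 at 43.2% (2093 sites), followed by chromosome 21 at 41.1% and chromosome 19 at 39.8%, leaving out chromosome Y, which held 1 site of each kind. Among the other nuclear chromosomes it was lowest on chromosome 6, at 28.1%. On the mitochondrial genome 2 of 136 reproducible sites were RBFOX2-only (1.47%).

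The gene with the most RBFOX2-only sites was ENSG00000008710.13, with 75 sites on the minus strand of chr16:2140704-2168116 (hg19). They covered 27.4 kb with a median gap of 60 nt and a median width of 48 nt, and their median read number in replicate 1 was 78. The gene also held 16 shared sites and 183 hnRNP peaks, of which 70 were of hnRNPA1, 50 of hnRNPc and 63 of hnRNPI. These hnRNP peaks are summed over the 12 lists, so a place listed in several libraries counts several times. Some of them lie outside the stretch of RBFOX2 sites. Of the 75 sites, 67 and 64 were overlapped in the 2 RecJ libraries, 44 in each 50k_lowRNase library, 24 and 29 in the 10k libraries and 12 and 14 in the 1k libraries. Without crosslinking, 31 and 17 were overlapped with PAGE and 45 and 39 without it. As shares of the 75 sites, the libraries without crosslinking and PAGE overlapped 60.0% and 52.0%, against 27.3% and 30.0% of all RBFOX2-only sites. The gene was picked for its number of sites, and this difference was not tested.

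The gene that followed, ENSG00000177084.11, held 49 RBFOX2-only sites on the minus strand between chr12:133201196-133405072 (hg19), at a median gap of 573 nt. It also held 68 shared sites and 1646 hnRNP peaks, and its sites spanned 204 kb. A gene on chromosome 15 packed 33 RBFOX2-only sites into 4.51 kb (chr15:75650622-75655128, minus strand, hg19), with a median gap of 9.5 nt and a median read number of 206. Of those 33 sites, 31 and 33 were overlapped in the RecJ libraries and 3 and 5 in the 1k libraries.

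**Figure D3:**
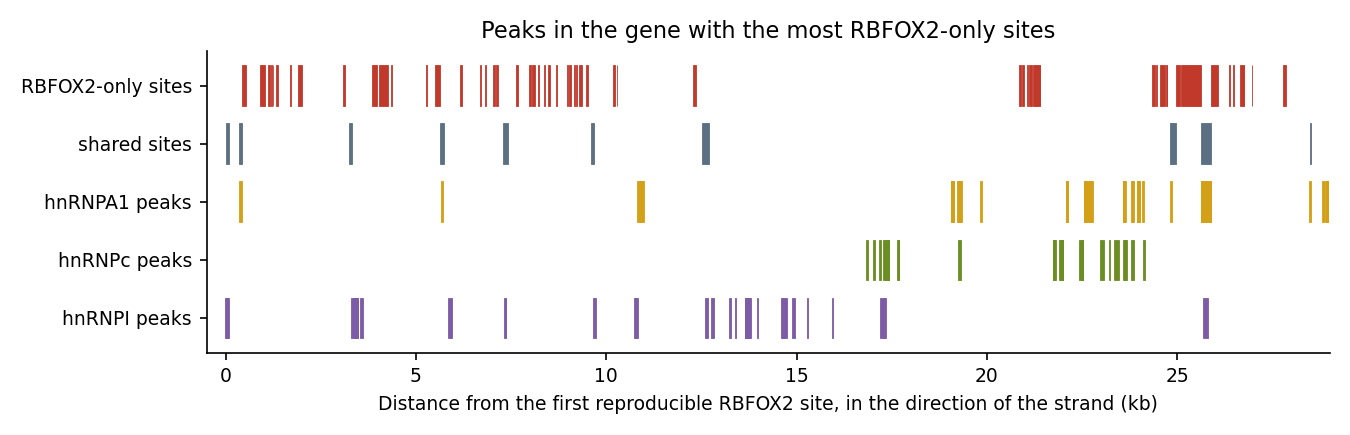
Peaks on the minus strand in ENSG00000008710.13, drawn to scale by distance in kb from the first reproducible RBFOX2 site. The 75 RBFOX2-only sites, the 16 shared sites and the peaks of the 12 hnRNP libraries of the rule stand in rows, and hnRNP peaks outside the stretch of RBFOX2 sites are not drawn. The RBFOX2-only sites stand in groups along the gene, and hnRNP peaks lie in the gaps between groups and also within them.

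The next comparison asks whether the sites stay with RBFOX2 in libraries that had no part in their choice. They did, in the direction that the rule favours, since it asked for RBFOX2 peaks and for no peak of the same hnRNPs. Averaged over the RecJ, 10k and 1k protocols, RBFOX2 libraries overlapped 39.2% of the RBFOX2-only sites and hnRNP libraries 1.84%, a difference of 37.3 percentage points. All 6 RBFOX2 libraries lay above all 10 hnRNP libraries. The exact two-sided permutation test over libraries within protocols gave p = 0.000992, the smallest that its 1008 relabellings allow (Benjamini-Hochberg adjusted over 3 tests, p = 0.00298). Because the rule favours this order, the p shows only that the order recurred over libraries. It is not independent support that the sites are particular to RBFOX2. The test treated each library as an independent unit. The 2 libraries of a group may be technical, in which case this p is too small.

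By protocol, the RecJ libraries of RBFOX2 overlapped 67.3% and 68.3% of the sites. The 6 RecJ libraries of the hnRNPs overlapped 2.14% to 4.98%, those of hnRNPA1 most at 4.75% ± 0.321 (SD, n = 2). In 10k the values were 34.3% and 37.5% for RBFOX2 against 1.19% and 1.26% for hnRNPc. In 1k they were 12.3% and 15.5% against 0.896% and 1.09%. The groups did not overlap in any of the 3 protocols. Shared sites, chosen for hnRNP overlap, were overlapped by the hnRNP RecJ libraries at 22.4% to 40.7%. At shared sites too the RBFOX2 mean lay above the hnRNP mean. The means were 77.3% and 32.4% in RecJ, 59.8% and 16.5% in 10k, and 27.7% and 12.1% in 1k. The order alone is thus not particular to RBFOX2-only sites.

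In each of these protocols the hnRNP lists were longer than the RBFOX2 lists. When every list was shortened to its 49247 peaks of smallest deposited p-value, RBFOX2 RecJ libraries overlapped 42.4% and 43.1% of the sites. The hnRNP RecJ libraries then overlapped 0.0567% to 0.219%. Over all 22 crosslinked hnRNP libraries outside the rule the range was 0.896% to 4.98%, with a median of 2.29%. The medium RNase libraries gave 1.46% to 3.58%, and the hnRNPc_5k and hnRNPc_500 libraries gave 1.44% to 2.71%. The gel regions overlapped 0 to 24 sites. In Background_100-150kDa replicate 1 it was 0, which allows up to 0.0113% of the sites for counting error alone, and in replicate 2 it was 3. These lists hold only 303 to 6716 peaks, which limits how many sites they can overlap.

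Of the RBFOX2-only sites, 4317 (16.3%) were overlapped in at least 1 of the 6 hnRNP RecJ libraries. This compares with 78.2% of the shared sites and with 57% of all reproducible sites. The rule favours this difference, since it split the sites by overlap with peaks of the same hnRNPs.

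Persistence across RBFOX2 libraries was lower than for shared sites. Over the 8 crosslinked RBFOX2 libraries outside the rule, a mean of 42.4% of the RBFOX2-only sites was overlapped against 59.4% of the shared sites, a difference of −17.1 percentage points. The difference was negative in 8 of 8 libraries. The exact two-sided permutation test, paired within library, gave p = 0.00781, the smallest that 256 sign changes allow (adjusted p = 0.00781). It shows that the difference between these fixed sets recurred over lists. The rule bears on width, and wide sites were overlapped more often. The part of width in this difference was not tested. If the 2 libraries of a group are technical, this p is too small.

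RBFOX2_50k_noPAGE_RecJ, the protocol nearest to that of the rule, kept most of the sites, at 67.8% ± 0.676 (SD, n = 2) against 77.3% ± 0.0140 of the shared sites. With PAGE, RBFOX2_50k_lowRNase kept 51.9% ± 2.01 (SD, n = 2) against 72.9% ± 1.64. RBFOX2_10k kept 35.9% ± 2.26 (SD, n = 2) against 59.8% ± 1.37. RBFOX2_1k kept 13.9% ± 2.26 (SD, n = 2) against 27.7% ± 3.28. The 2 libraries of each group did not overlap those of the group next in this order. The lists of the 1k libraries are also the shortest of the 8, with 49247 and 72602 peaks. With every list shortened to 49247 peaks, the order was the same, at 42.4% and 43.1% in RecJ, 28.1% and 28.9% in 50k_lowRNase, 22.5% and 22.9% in 10k and 12.3% and 12.7% in 1k. Cell number and RNase amount differ together between the 50k, 10k and 1k groups, and their parts cannot be told apart.

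**Figure D4:**
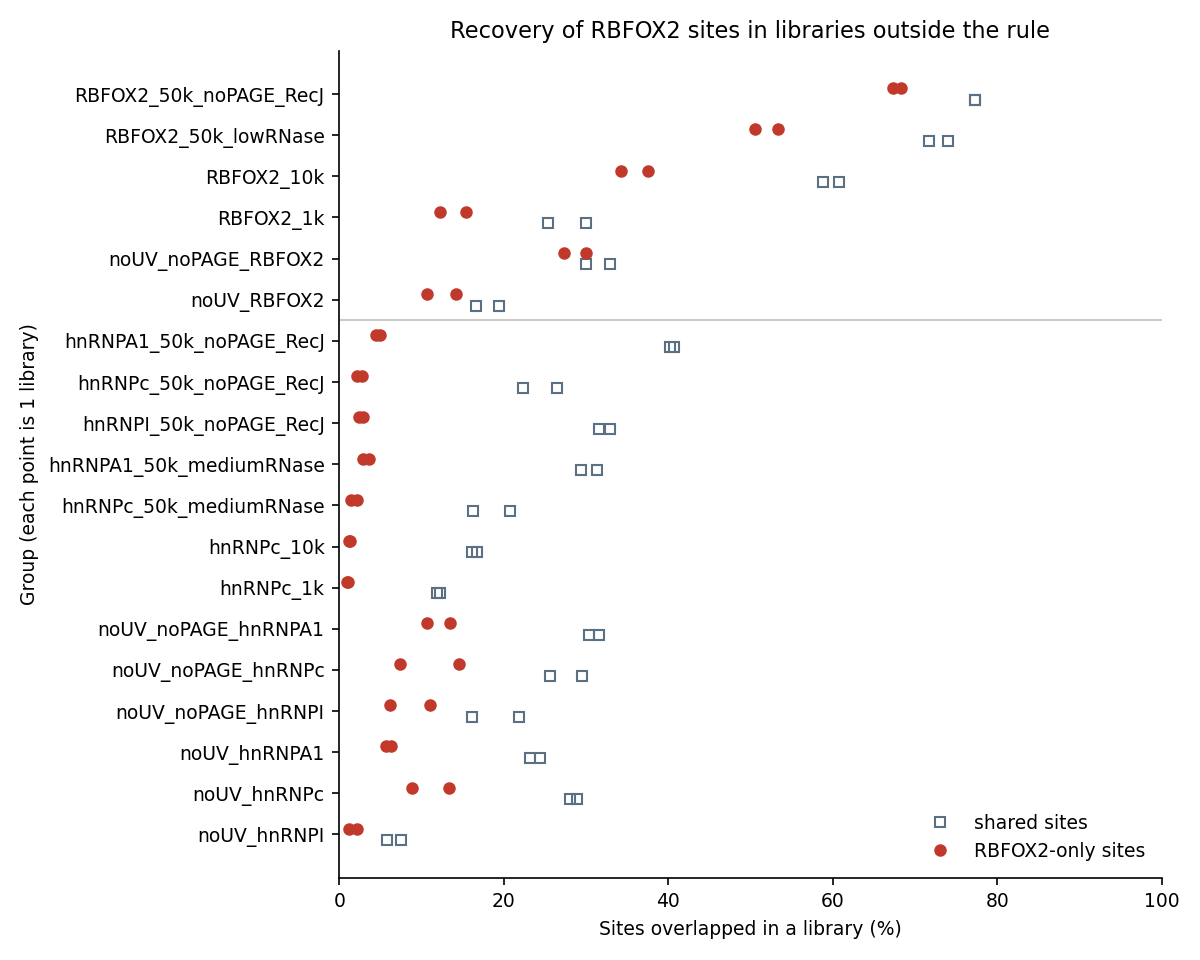
Percent of the 26448 RBFOX2-only sites (filled circles) and of the 50462 shared sites (open squares) overlapped in single libraries (1 point each) of 19 groups outside the rule. RBFOX2 groups stand above the grey line and hnRNP groups below it. RBFOX2-only sites reach 68.3% in RBFOX2 libraries and stay at or below 4.98% in the crosslinked hnRNP libraries.

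Counted site by site, 14433 RBFOX2-only sites (54.6%) were overlapped in both RecJ libraries, where the share over all reproducible sites was 62.7%. In both 50k_lowRNase libraries it was 10724 (40.5%), against 55.9% of all. In both 10k libraries it was 6676 (25.2%), against 40.6%, and in both 1k libraries 1442 (5.45%), against 12.2%. The shares of RBFOX2-only sites lay below the background in each of these 4 groups.

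Few sites were found everywhere. All 8 crosslinked libraries overlapped 1096 RBFOX2-only sites (4.14%), against 10.5% of all reproducible sites and 13.9% of the shared ones. None of the 8 overlapped 2384 (9.01%), against 5.67% of all reproducible sites. From the sites found in 0 libraries to those found in 8, the median width rose from 43 to 90 nt and the median read number from 9 to 48. None of the 12 other RBFOX2 libraries, with or without crosslinking, overlapped 1749 sites (6.61%), against 4.48% of all reproducible sites.

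**Figure D5:**
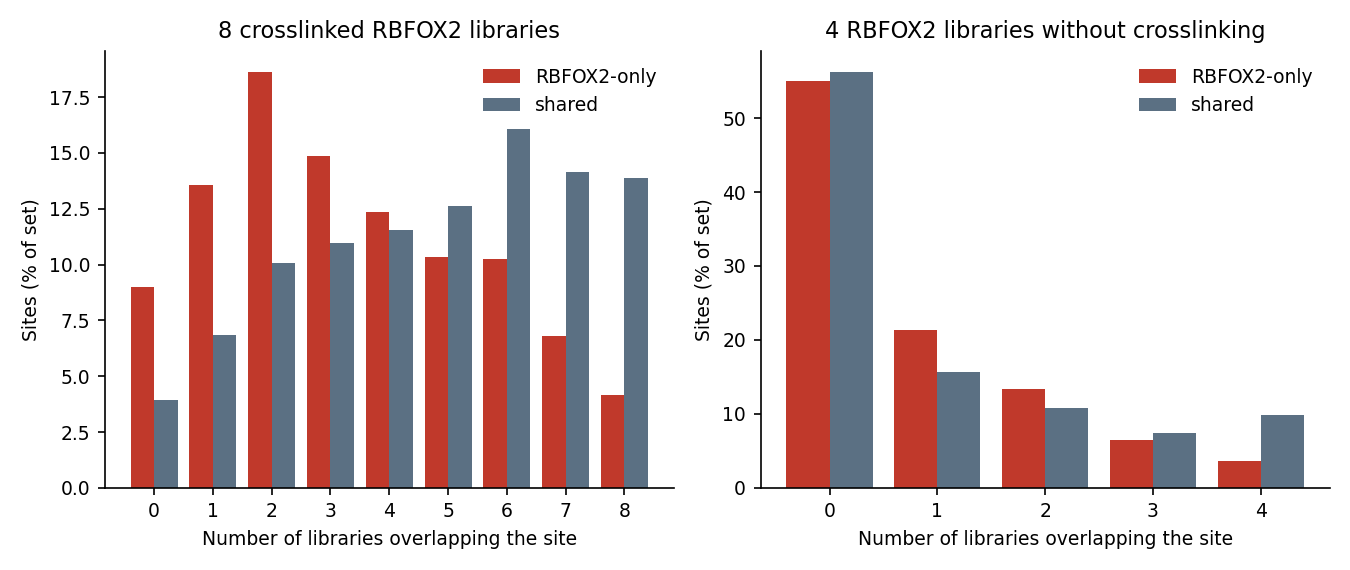
Percent of RBFOX2-only and of shared sites (bars, each set summing over its bars to the whole set) by the number of RBFOX2 libraries that overlap the site. Left, 8 crosslinked libraries outside the rule, where 4.14% of RBFOX2-only and 13.9% of shared sites are in all 8. Right, 4 libraries without crosslinking, where 55.1% and 56.3% are in none.

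Recovery followed both width and read number. In the RecJ group it rose from 55.7% for RBFOX2-only sites of at most 20 nt to 83.8% for those over 100 nt, and in 50k_lowRNase from 26.6% to 77.3%. Sites with a lower read number (the smaller of the 2 replicates) below 10 were overlapped at 45.5% in RecJ, and those of 100 or more at 95.3%. At the same read numbers, with width not matched, shared sites were still the more often overlapped. In 50k_lowRNase, 47.6% of RBFOX2-only and 59.9% of shared sites below 10 reads were overlapped, and 70.0% and 91.3% of those at 100 or more. In 1k the shares at 100 or more reads were 30.7% and 61.7%. Of the RBFOX2-only sites at 100 or more reads, RecJ overlapped 95.3%, 50k_lowRNase 70.0% and 10k 47.2%. RecJ and 10k differ in cell number, RNase amount and the RecJ step, whose parts cannot be told apart.

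Without crosslinking, the sites were again found more often with RBFOX2 than with the hnRNPs, the direction that the rule favours. The mean over both protocols was 20.5% in RBFOX2 libraries and 8.40% in hnRNP libraries, a difference of 12.1 percentage points. The exact two-sided permutation test within protocols gave p = 0.00255 (784 relabellings, adjusted p = 0.00383). Of the 4 RBFOX2 libraries, 3 lay above every hnRNP library of their protocol. For shared sites the RBFOX2 and hnRNP means were 18.0% and 19.6% with PAGE, and 31.4% and 25.8% without it. The test measures the spread between libraries, 2 for RBFOX2 and 6 for the hnRNPs in each protocol. Since the rule favours this direction, its p is not independent support that the sites are particular to RBFOX2. Here too the p is too small if the 2 libraries of a group are technical.

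With PAGE, noUV_RBFOX2 overlapped 14.1% and 10.7% of the sites. The hnRNP libraries overlapped 1.15% to 13.4%, the highest being noUV_hnRNPc replicate 2, so the groups overlapped. Without PAGE, noUV_noPAGE_RBFOX2 overlapped 27.3% and 30.0%, and the hnRNP libraries 6.20% to 14.6%, so they did not. The 2 hnRNPc libraries of each protocol lay apart, at 8.79% and 13.4% with PAGE and at 7.38% and 14.6% without it. With each list shortened to 18690 peaks, the RBFOX2 libraries of both protocols overlapped 9.10% to 13.6% and the hnRNP libraries 0.397% to 2.41%.

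In counts, both noUV_RBFOX2 libraries overlapped 1291 RBFOX2-only sites (4.88%), against 8.94% of all reproducible sites. Both noUV_noPAGE_RBFOX2 libraries overlapped 4539 (17.2%), against 21% of all. At least 1 of the 12 hnRNP libraries without crosslinking overlapped 11194 (42.3%), against 59.3% of all. At least 1 of the 4 RBFOX2 libraries overlapped 11881 (44.9%), against 44.1% of all, and all 4 overlapped 955 (3.61%), against 7.69%. None of the 16 libraries without crosslinking overlapped 10336 sites (39.1%), against 29.7% of all. At low read numbers the 2 site sets changed places without crosslinking. Below 10 reads, noUV_noPAGE_RBFOX2 overlapped 10.8% of RBFOX2-only and 7.87% of shared sites, and at 100 or more 59.4% and 77.3%.

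A strict core of the sites was found in every crosslinked RBFOX2 library and nowhere else among the other proteins. It held 476 sites (1.80%) that were overlapped in all 8 crosslinked RBFOX2 libraries outside the rule and in no library of another protein or gel region, with or without crosslinking. Counted over the libraries outside the rule, this compares with 0.962% of all reproducible sites. Of the 476, 225 were in no RBFOX2 library without crosslinking either. Without the demand for all 8, 11441 RBFOX2-only sites (43.3%) were in no library of another protein or gel region, against 19.1% of all reproducible sites over the libraries outside the rule. The rule excluded hnRNP peaks, so it favours higher shares for RBFOX2-only sites in both comparisons. All reproducible sites also include the RBFOX2-only ones. For shared sites alone the 2 shares were 0.523% and 6.51%.

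The 10 core sites with the highest read numbers, at most 1 per gene, were 77 to 170 nt wide with a median of 95.5 nt. Their nearest hnRNP peak lay 10 to 546 nt away, and 9 of the 10 were overlapped in at least 1 RBFOX2 library without crosslinking. Read numbers of different groups are unscaled. The first was chr16:29819408-29819497 (hg19, plus strand), with read numbers of 668 and 675 in the 2 replicates of the rule. It had 502 and 613 in RecJ, 632 and 580 in 50k_lowRNase, 230 and 220 in 10k, and 21 and 28 in 1k. Without crosslinking it had 34 and 24 with PAGE and 76 and 102 without it. The 1k libraries and those without crosslinking and with PAGE had the lowest numbers.

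The site chr17:39975656-39975743 (plus strand) had 572 and 550 in the replicates of the rule, 1028 and 854 in 50k_lowRNase and 90 and 79 in 1k. It was in neither noUV_RBFOX2 library and had 60 and 75 in noUV_noPAGE_RBFOX2. At chr1:227955508-227955584 (plus strand) the replicates of the rule had 516 and 471, and 10k had 444 and 356. Without crosslinking it had 107 and 72 with PAGE, more than any other of the 10, and 201 and 141 without PAGE. At chr4:1804893-1805062 (plus strand), the widest of the 10, the numbers were 563 and 505, and 58 and 80 in 1k. It was 10 nt from the nearest hnRNP peak.

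The remaining sites of the 10 had 267 to 426 reads in replicate 1. They were chr22:21348535-21348624, chr14:105933133-105933282, chr12:133295284-133295379 and chr20:62317793-62317911 on the plus strand and chr16:1821100-1821218 and chr1:111991494-111991588 on the minus strand. The site on chromosome 22 had the farthest hnRNP peak, at 546 nt. The site on chromosome 20 was the 1 of the 10 that no library without crosslinking overlapped. It had 293 and 267 reads in the replicates of the rule and 15 and 23 in 1k.

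The sites with the most reads of all were of another kind. The highest, chr1:109643153-109643168 (plus strand, 16 nt wide), had 4067 and 4086 reads. Among the other 66 lists it appeared only in the 2 RecJ libraries, at 2454 and 3023. The lists give nearly the same stretch a further time under another gene. At chrX:73071141-73071149 (minus strand, 9 nt wide) the replicates had 1063 and 1052 reads, and all 4 RBFOX2 libraries without crosslinking overlapped it. So did 4 of the 8 crosslinked RBFOX2 libraries and 2 of the 12 hnRNP libraries without crosslinking. It lay 4 nt from a hnRNP peak. At chr12:7076500-7076508 (minus strand, also 9 nt) the replicates had 698 and 1197, and 1 hnRNP library without crosslinking overlapped it. The fourth locus, chr11:65269295-65269322 (plus strand, 28 nt), had 857 and 785 and was in all 8 crosslinked libraries. It was also overlapped in 6 libraries of other proteins or gel regions. All of these sites were narrower than the median of 60 nt.

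Sites in all 4 RBFOX2 libraries without crosslinking and with high read numbers included wide ones. At chr15:75651449-75651587 (minus strand, 139 nt) the replicates had 668 and 717 reads, 1k had 90 and 156, noUV_RBFOX2 had 38 and 21 and noUV_noPAGE_RBFOX2 had 107 and 100. This site lies in the crowded chromosome 15 gene described above. At chr9:95571959-95572009 (plus strand) the replicates had 604 and 665, and at chr3:42661259-42661455 (plus strand, 197 nt) 565 and 529. Both were in all 8 crosslinked libraries. Libraries of other proteins or gel regions also overlapped these sites, 1 at the chromosome 15 site, 1 at the chromosome 9 site and 2 at the chromosome 3 site.

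Sites close to the thresholds of the rule are given without a test. Just inside, 1679 RBFOX2-only sites lay 0 to 10 nt from a hnRNP peak, with a median width of 58 nt and 70.2% overlapped in RecJ. Just outside, 3646 shared sites met a hnRNP peak over 1 to 10 nt, with a median width of 28 nt and 76.1% overlapped in RecJ. The 6 hnRNP RecJ libraries overlapped a mean of 7.23% of the former and 25.1% of the latter. On the side of the replicates, 2540 RBFOX2-only sites overlapped replicate 2 over 1 to 10 nt, with a median width of 22 nt and 48.7% overlapped in RecJ. Another 1246 peaks, free of hnRNP overlap, missed replicate 2 by 0 to 10 nt, and 38.8% of them were overlapped in RecJ.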

How the data were processed

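Peak lists of 68 libraries were analysed, listed separately for each library. The submitters' processing notes name hg19, STAR 2.7.3a, UMI-tools 1.0.1 and bcl2fastq without roles, and the deposited names give CLIPper as peak caller. The sources used here do not give its parameters. Each p-value is the deposited one, at most 0.00755, with no adjustment stated. Start, end and read number are also as the authors deposited them. Depth is unknown.

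Overlaps (at least 1 nt, same strand) were computed in Python 3.11.15 with numpy 2.4.6 and pandas 2.3.3 and checked on simulated intervals. Exact two-sided permutation tests took libraries as units, with Benjamini-Hochberg adjustment over 3 tests. If the 2 libraries of a group are technical, the p-values of these tests are too small. The members, lists and tests were chosen with earlier results of these data known.

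Named sites, at most 1 per gene, were the 10 core sites, 5 sites overall and 5 sites in all 4 RBFOX2 libraries without crosslinking with the highest lower read number of both replicates, and the 5 genes with the most sites. A gene table for another build matched 0 identifiers, so gene lists were not applied and the motif was not searched.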

Additional observations from a re-analysis of the deposited data

Results flagged for a closer look

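Between 50k_noPAGE_RecJ and noUV_noPAGE, the overlap of RBFOX2-only sites differed in opposite directions for RBFOX2 and for the hnRNPs. The mean percent of sites overlapped went from 67.8% to 28.7% in RBFOX2 libraries. It went from 4.75% to 12.1% for hnRNPA1, from 2.48% to 11.0% for hnRNPc and from 2.65% to 8.63% for hnRNPI. Each RBFOX2 library was lower in noUV_noPAGE, and each hnRNP library was higher. The changes of hnRNPA1, hnRNPc and hnRNPI lay 46.4, 47.6 and 45.1 percentage points above that of RBFOX2. These differences were not tested. The sites were chosen for lacking peaks in crosslinked hnRNP libraries, and the groups differ in the RecJ step and in list length as well as in crosslinking. For shared sites, the means of hnRNPA1 and hnRNPI were lower in noUV_noPAGE (40.5% to 31.0% and 32.2% to 19.0%), and that of hnRNPc was 24.4% and 27.5%.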

How the results depend on the processing

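The number of sites ranged from 18506 to 39310 over 22 alternatives, which include either limit on the deposited p-value (below 1e-05), other overlaps and leaving out single hnRNP libraries. The 3 tests kept their direction and stayed below 0.05 under each alternative run. The rule favours the direction of the tests of RBFOX2 against hnRNP libraries, and it bears on the width of the sets compared for recovery. The difference between RBFOX2 and hnRNP libraries ranged from 25.8 (lists of equal length) to 42.1 percentage points over 40 alternatives, with exact permutation p from 0.000992 to 0.00397. The recovery difference ranged from −22.8 (sites of 100 reads or more) to −8.12 (below 10 reads) over 36 alternatives (exact permutation p 0.00781 to 0.0156), and the difference without crosslinking from 8.93 to 16.96 over 40 (exact permutation p 0.00128 to 0.0102). With the replicate number as a block, the differences stayed at 37.3 (exact permutation p = 0.00391) and 12.1 (exact permutation p = 0.00781). Each group has 2 replicate numbers. In the 50k_noPAGE_RecJ groups, deviations of same-numbered libraries correlated at −0.00425 to 0.00767. This covers that protocol only and does not settle whether same-numbered libraries share a batch.

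The median width difference, −12 nt, was 0 nt with an overlap of 50% of the peak, −14 nt for RBFOX2 peaks and −9 nt for hnRNP peaks with p below 1e-05. It was −10 nt with hnRNP peaks kept 50 nt away, −11 nt with replicate 2 as reference, and −17 nt for clusters. By read number it was −9 nt below 10 reads, −15 nt at 10 to 19, −18 nt at 20 to 49 and −19 nt at 50 to 99, and it reversed to 11.5 nt at 100 or more. The share under 30 nt from another site, 24.9%, was 24.4% with an overlap of 10 nt, 26.3% with 50% of the peak, 30.8% and 27.6% with the limits on RBFOX2 and hnRNP p-values, 25.2% with 50 nt kept free, 25.1% from replicate 2 and 21.6% with identical intervals counted once. Leaving out single hnRNP libraries gave 24.8% to 25.5%. The causes were not tested. Clusters were not run for this share, which joining sets to 0. Identical intervals counted once, equal list lengths and the read classes were chosen after seeing the data. List length limits what recovery can show, and depth is unknown.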
